A study of Mus musculus with 32 samples.

Results

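The renin-angiotensin system was followed through cisplatin injury of the mouse kidney, as the transcripts of 7 genes among the 54532 genes counted. The members were taken by gene symbol, and each matched 1 gene of the count table. They are Agt, which encodes the substrate angiotensinogen; Ren1, which encodes renin; Atp6ap2, the (pro)renin receptor; Ace, the angiotensin-converting enzyme; Enpep and Mme, peptidases that cleave angiotensin peptides; and Agtr1a, the main angiotensin II receptor of the mouse kidney. All 7 passed the filter on low counts in every comparison.

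In this system, renin is released by juxtaglomerular cells of the afferent arteriole and cuts angiotensinogen, which comes mainly from liver, to angiotensin I. Ace on endothelium and on the brush border of the proximal tubule converts angiotensin I to angiotensin II. Angiotensin II acts on its receptor to constrict vessels, to raise sodium reabsorption and to hold back renin release, and it is degraded by aminopeptidase A (the Enpep product), while neprilysin (the Mme product) trims angiotensin I to shorter peptides.

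Whole-kidney RNA was sequenced from wild-type (wt) C57BL/6 mice aged 6 to 8 weeks, in 8 groups of 4 mice each. Each sex was sampled on Day 0 and then 2, 3 or 5 days after a single intraperitoneal injection of 20 mg/kg cisplatin, a platinum drug that damages proximal tubule cells (Day 2, Day 3 and Day 5). The sample labels give the Day 0 females a cisplatin treatment and the Day 0 males none, and the study treats Day 0 of both sexes as healthy, which was followed here. A tissue lysate holds all cell types of the kidney, so fewer cells of a type and less RNA per cell cannot be told apart.

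Total counts per library lay between 16502107 and 35961325. Mitochondrial transcripts took 4.49% to 24.0% of the counts at Day 0, Day 2 and Day 3, but 78.9% to 79.8% in male Day 5 mice 2 to 4 and 77.9% in female Day 5 mouse 2. The proximal tubule markers, 12 genes of which none was at 0, summed to between 10850 and 14150 CPM (counts scaled to the effective size of each library) in males at Day 0 but to 839 to 1688 CPM in male Day 5 mice 2 to 4. The library labelled male Day 5 mouse 1 went against its label in part. It held Xist at 232.2 CPM, against 0 to 38.6 CPM in the other 15 male libraries and 157.8 to 272.1 CPM in the Day 5 females. Its 4 Y-linked genes summed to 21.6 CPM, against 66.4 to 87.8 CPM in the other 3 Day 5 males and 0 in all females from Day 2 to Day 5. Its mitochondrial share was 42.5%. In Day 0 females the Y-linked genes summed to 0.137 to 7.17 CPM. Female Day 0 mouse 2 carried hepatocyte transcripts (7 markers, 11220 CPM in sum, against 64.7 to 419 CPM in the other 3 mice of its group). Adrenal cortex markers, 7 genes, summed to 1307 and 1617 CPM in female Day 3 mice 3 and 4 and to 408 to 1047 CPM in female Day 5 mice, against 3.11 to 244.8 CPM in female Day 0 mice and 2.64 to 4.41 CPM in female Day 2 mice. In males they reached 380.2 CPM in Day 2 mouse 2 and at most 121.1 CPM in the other libraries. The p53 target Cdkn1a checked the treatment. It rose in females at Day 2 by 4.32 (SE 0.491, log2 fold change, adjusted p = 0.0040, edgeR) and passed on both later days. In males it was at 3.33 at Day 2, which did not pass (adjusted p = 0.0535, edgeR), and passed at Day 3 (3.09, SE 0.348, adjusted p = 0.00352, edgeR) and Day 5. The injury marker Havcr1 passed in females at Day 3 and in males on no day (adjusted p 0.0895 to 0.511, edgeR). Lcn2, a second injury marker, passed in males at Day 3 (3.53, SE 0.735, adjusted p = 0.0155, edgeR) and at Day 5 (4.19, SE 0.948, adjusted p = 0.0185, edgeR).

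The genes for the enzyme and for its substrate share a feature in front of their start sites that the choice of members did not use. The letters TATAAA, on the gene's own strand and beginning 20 to 40 bases before the start site, were found in 2 of the 6 members with a RefSeq promoter entry (GRCm38.p6), and in 2.41% of all 27025 genes with an entry. They are shown because these genes open the cascade. The capitals mark the motif, which begins 29 bases before the RefSeq start in Ren1 and 30 in Agt. In the count table Ren1 begins earlier, at 133350510, so its stretch lies inside that gene span. A match of letters is a description, not a measured site. Anywhere in the entry, on either strand, 15.7% of the genes held the letters.
Ren1, chr1:133350634-133350661, plus strand: tacatggtgtgTATAAAagaaggctcag
Agt, chr8:124569720-124569747, minus strand: caccccttgagTATAAAtaagcctgctt

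The levels of the 7 genes were compared with each other as FPKM, which divides counts by gene length. In males at Day 0, Ace ranked first at 45.5 ± 17.7 FPKM (SD, n = 4), followed by Atp6ap2 at 34.2 ± 4.78, Agt at 30.2 ± 10.1, Ren1 at 21.6 ± 12.1, Enpep at 16.8 ± 3.30, Agtr1a at 12.4 ± 0.366 and Mme at 5.92 ± 1.73. In females at Day 0, Agt ranked first at 66.3 ± 45.0 FPKM and Ren1 second at 45.7 ± 20.4, ahead of Atp6ap2 at 35.2 ± 4.26 and Ace at 32.3 ± 15.96. Ace held rank 1 in males at Day 0 and fell to rank 4 in males at Day 5, at 8.63 ± 5.73 FPKM. Agt stayed first in females on all 4 days. Agtr1a was rank 6 and Mme rank 7 in every group. Within a gene, no 2 neighbours in the order of the 8 group means of CPM were separated, since their ranges over mice overlapped for each of the 7 genes. Neighbours have the closest means, so this says little of groups further apart. For Ace, male Day 5 overlapped its neighbour, female Day 5, only through the library labelled male Day 5 mouse 1.

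**Figure D1:**
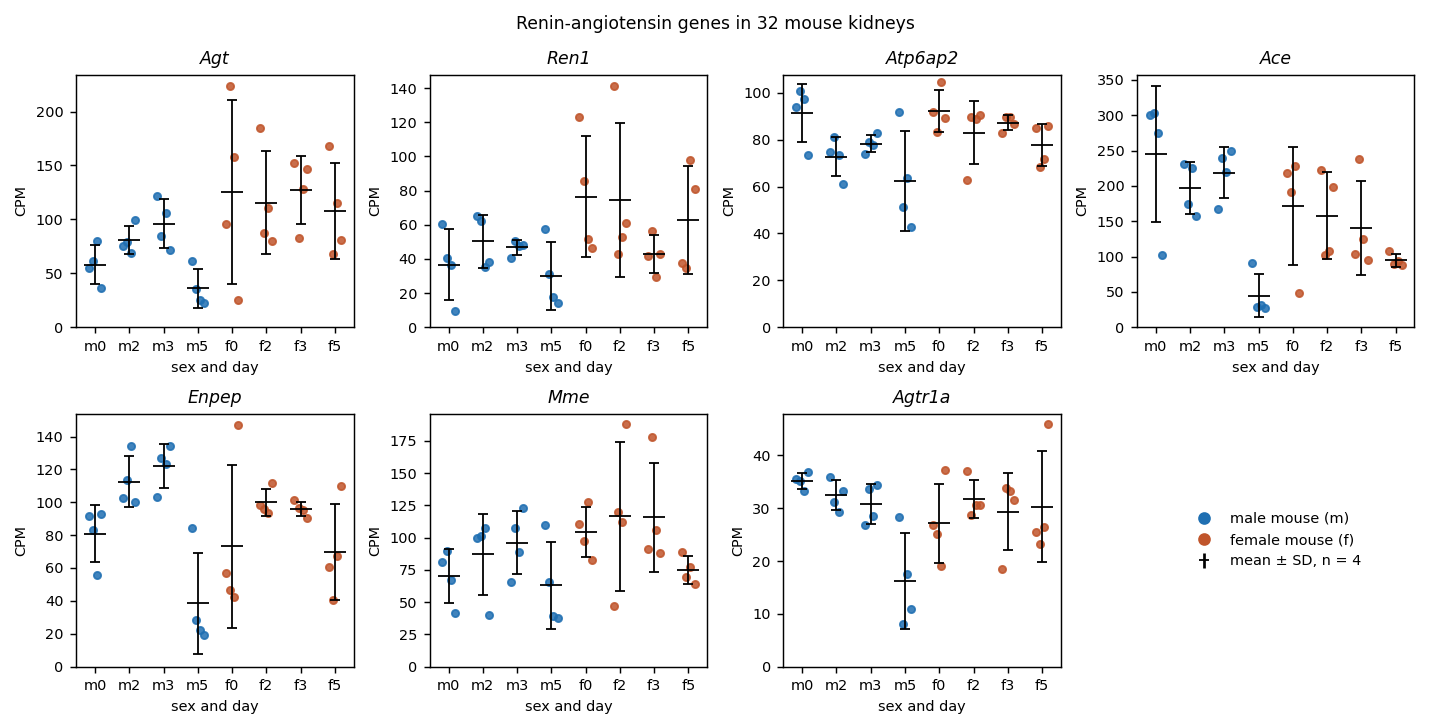
Level of each of the 7 genes in CPM (vertical axis, linear and starting at 0) in 32 kidneys, by sex (m, male, f, female) and day (0, 2, 3, 5). Points are mice and black bars are the mean ± SD of 4 mice. Ace in male Day 5 mice 2 to 4 lies between 27.4 and 31.3 CPM, below every other mouse, and the library labelled male Day 5 mouse 1 stands above its group for Ace and Enpep.

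Ace, the converting enzyme, was the member that changed most. In males at Day 0 it was at 300.3, 303.6, 274.5 and 102.6 CPM in mice 1 to 4, and at Day 5 at 90.4, 28.8, 31.3 and 27.4 CPM. Every Day 5 male lay below every Day 0 male, and mouse 4 of Day 0 was nearer to Day 5 than to its own group. The fold change was -2.41 on the log2 scale (SE 0.492, 95% interval -3.51 to -1.31), 5.32-fold lower at Day 5 (adjusted p = 0.0140, edgeR's quasi-likelihood test, Benjamini-Hochberg over 14969 genes). Without the library labelled male Day 5 mouse 1 it was -2.99 (adjusted p = 0.00125, edgeR). Without male Day 5 mouse 2 or mouse 3 it was -2.25 and -2.28, with adjusted p = 0.0528 and 0.0513 (edgeR), so the call was lost while the size moved little. The mitochondrial share and the proximal tubule markers moved with it in the same libraries. Leaving mitochondrial genes out of the table gave -2.43 (adjusted p = 0.0142, edgeR). That fit kept the same libraries, so it is no test of their mitochondrial share. The part of this share and of the tubule markers in the result was not tested.

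In females Ace was at 217.9, 190.7, 228.5 and 48.1 CPM at Day 0 and at 108.5, 89.8, 93.7 and 87.6 CPM at Day 5. The groups overlapped only through mouse 4 of Day 0, which was lower than all Day 5 mice. The fold change was -0.85 (SE 0.397, 95% interval -1.72 to 0.03) and did not pass the test (adjusted p = 0.331, edgeR). Without female Day 0 mouse 4 it was -1.15 (adjusted p = 0.0138, edgeR). Over 16 alternative fits it lay between -1.15 and -0.65, and 14 of them did not pass. Mitochondrial shares were 9.30% to 77.9% in the Day 5 females, against 4.49% to 10.1% in the Day 0 females other than mouse 4. The part of this share in the value was not tested. Before Day 5, Ace in males was at 197.0 ± 36.6 CPM at Day 2 and 219.0 ± 36.7 CPM at Day 3 (SD, n = 4), and in females at 157.8 ± 61.6 CPM and 140.7 ± 66.6 CPM. None of these 4 comparisons with Day 0 was called.

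Enpep, aminopeptidase A, rose in males early and gave the other call against Day 0. It was at 91.7, 82.9, 55.8 and 92.8 CPM at Day 0, at 102.7, 113.8, 134.0 and 100.1 CPM at Day 2 and at 103.2, 127.1, 123.2 and 134.3 CPM at Day 3. The lowest mouse at Day 2 and the lowest at Day 3 were both above the highest mouse at Day 0. At Day 3 Enpep was 1.51-fold higher (log2 fold change 0.59, SE 0.173, adjusted p = 0.0389, edgeR). At Day 2 the value was 0.49 (SE 0.188, adjusted p = 0.126, edgeR), which did not pass. On these days podocyte markers, 6 genes, summed to 366 to 511 CPM (Day 2) and 392 to 473 CPM (Day 3), against 160 to 296 CPM at Day 0, with 2 and 3 of 6 called higher. Endothelial markers, 8 genes, had 2 of 8 called higher on each day, beside 3.16% and 24.5% of all genes called, and adipocyte markers, 8 genes, summed to 745 to 1030 CPM at Day 3 against 1994 to 3972 CPM at Day 0, with 5 of 8 called lower. Their part in the Enpep values was not tested. The Day 3 call was lost in 9 of 16 alternatives, in 6 of them by leaving out 1 mouse (Day 0 mouse 1 or 2, or any mouse of Day 3), with log2 fold changes of 0.55 to 0.67 and adjusted p of 0.0552 to 0.102 (edgeR).

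At Day 5 Enpep in males was at 84.4 CPM in the library labelled mouse 1 and at 28.4, 22.1 and 19.0 CPM in mice 2 to 4. Mouse 1 lay among the Day 0 mice and the other 3 below them. The log2 fold change from Day 0 was -1.01 (SE 0.442, adjusted p = 0.132, edgeR). Over 16 alternative fits it lay between -1.72 and -0.79, and 13 of them did not pass. Without mouse 1 it was -1.72 (adjusted p = 0.00153, edgeR). The 3 males then left had mitochondrial shares of 78.9% to 79.8% and proximal tubule markers at 839 to 1688 CPM, and the part of these in the value was not tested. The same holds for each value given without this library. In females Enpep was at 56.9, 46.7, 42.2 and 146.9 CPM at Day 0, at 98.7, 95.9, 93.6 and 111.7 CPM at Day 2, and at 101.4, 96.2, 95.2 and 90.7 CPM at Day 3. Mouse 4 of Day 0 was the highest of all 32 mice, and the other 3 lay below every Day 2 and Day 3 female. The log2 fold changes were 0.45 (SE 0.371) at Day 2 and 0.37 (SE 0.376) at Day 3, not called at adjusted p = 0.468 and 0.505 (edgeR). Without female Day 0 mouse 4, Enpep was higher by 1.04 at Day 2 (adjusted p = 0.00488, edgeR) and by 0.97 at Day 3 (adjusted p = 0.00196, edgeR). That library had a mitochondrial share of 19.7%, against 4.49% to 10.1% in the other 3 Day 0 females.

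Mme, neprilysin, was called in no comparison. In females it was at 110.6, 97.6, 128.0 and 82.3 CPM at Day 0 and at 88.5, 69.2, 77.3 and 63.8 CPM at Day 5. The 2 groups overlapped, with 1 Day 5 mouse above the lowest Day 0 mouse, and the log2 fold change was -0.48 (SE 0.207, adjusted p = 0.293, edgeR). In males the Day 5 mice spread from 37.9 to 110.0 CPM, around the range of Day 0 from 41.7 to 89.4 CPM.

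Agtr1a, the receptor, differed little between the Day 0 males. It was at 35.6, 35.1, 33.3 and 36.9 CPM in males at Day 0 and at 28.4, 8.02, 17.6 and 10.8 CPM at Day 5. All Day 5 males lay below all Day 0 males. The log2 fold change was -1.05 (SE 0.338, 95% interval -1.81 to -0.29, adjusted p = 0.0554, edgeR), and -1.46 without the library labelled male Day 5 mouse 1 (adjusted p = 0.00538, edgeR). Over 16 alternative fits it lay between -1.69 and -0.83, and 11 of them did not pass. Female Day 5 mice were at 25.6, 23.2, 26.4 and 46.0 CPM, within or above the Day 0 range of 19.1 to 37.3 CPM. The second receptor gene of the type, Agtr1b, had at most 7 counts in any library, and reads that fit both paralogues may have been left uncounted.

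Agt, the substrate, was at 54.6, 61.2, 80.1 and 36.2 CPM in males at Day 0 and at 122.0, 84.5, 106.2 and 72.0 CPM at Day 3. The 2 groups overlapped through 1 mouse on each side. The log2 fold change of 0.73 (SE 0.256, 95% interval 0.14 to 1.31) did not pass the test (adjusted p = 0.0678, edgeR), and was 0.93 without male Day 0 mouse 3 (adjusted p = 0.0142, edgeR). Mouse 3 was the highest of the Day 0 males. Over 16 alternative fits the value lay between 0.56 and 0.93, and 13 of them did not pass. At Day 5 the males were at 61.5, 35.8, 24.8 and 22.0 CPM, with a log2 fold change of -0.64 (SE 0.353, adjusted p = 0.223, edgeR). Without the library labelled male Day 5 mouse 1, Agt was at -1.002 (adjusted p = 0.0372, edgeR). In females Agt spread from 24.8 to 224.0 CPM at Day 0, and its 95% intervals against Day 0 were the widest of the 7 genes. The highest of these mice was mouse 2, the library with hepatocyte transcripts. Liver is the main source of angiotensinogen, and the part of those transcripts in its Agt value was not tested.

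Ren1 spread widely between mice of a group. It was at 60.6, 40.4, 36.2 and 9.6 CPM in males at Day 0, and at 123.0, 85.5, 51.4 and 46.1 CPM in females at Day 0. At Day 3 it was at 41.9, 56.6, 29.3 and 42.6 CPM in females, and the groups overlapped. The log2 fold change was -0.86 (SE 0.334, adjusted p = 0.123, edgeR), and -1.04 without female Day 0 mouse 4 (adjusted p = 0.0292, edgeR). Over 17 alternative fits it lay between -1.46 and -0.51, and 15 of them did not pass. In males, Ren1 lay between 35.5 and 65.1 CPM at Day 2, between 40.8 and 50.6 CPM at Day 3 and between 14.0 and 57.7 CPM at Day 5. The strain carries 1 renin gene, so no copy shares its reads.

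Atp6ap2, the (pro)renin receptor and an accessory subunit of the proton pump, had the narrowest range of group means of the 7 genes on the log2 scale. They lay between 62.4 and 92.2 CPM. In males it was at 93.8, 100.9, 97.1 and 73.5 CPM at Day 0 and at 91.6, 51.4, 63.8 and 42.8 CPM at Day 5, with overlap through 1 mouse on each side and a log2 fold change of -0.49 (SE 0.249, adjusted p = 0.184, edgeR). Without the library labelled male Day 5 mouse 1 it was -0.72 (adjusted p = 0.0320, edgeR). Over 16 alternative fits it lay between -0.80 and -0.35, and 13 of them did not pass. At Day 3 it was -0.22 (SE 0.121, adjusted p = 0.199, edgeR), and -0.31 without male Day 0 mouse 4 (adjusted p = 0.0321, edgeR). The 16 alternatives of the Day 3 value lay between -0.31 and -0.18, and 14 of them did not pass.

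**Figure D2:**
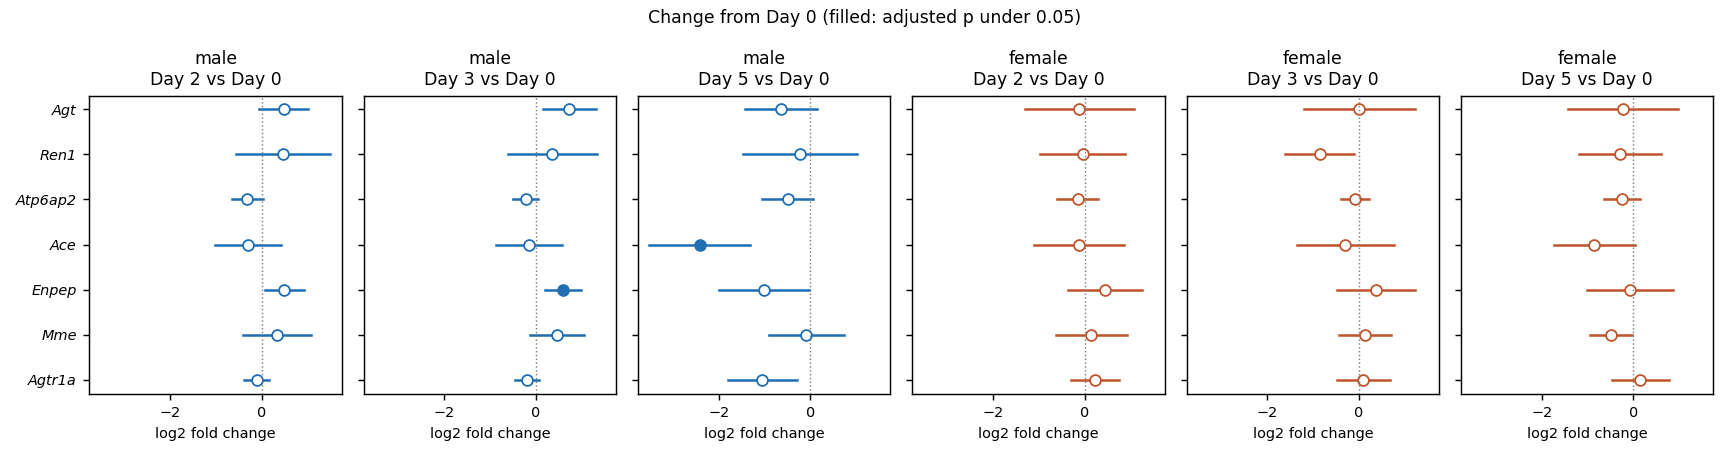
Log2 fold change of each gene from Day 0 (horizontal axis) with its 95% interval (line), for males (blue) and females (orange) at Day 2, Day 3 and Day 5. Filled circles passed adjusted p under 0.05 with edgeR: Enpep in males at Day 3 and Ace in males at Day 5, at 0.59 and -2.41.

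Counted over the 7 genes, 0 were called in males at Day 2, where 3.16% of all 16051 genes tested were called, 1 was called at Day 3 (24.5% of 15908 genes) and 1 at Day 5 (19.2% of 14969 genes). A member count of 1 in 7 at Day 3 and at Day 5 is near these backgrounds. The counts moved with the share of all genes called when 1 mouse was left out. At Day 5 the count was 5, all lower, without the library labelled male Day 5 mouse 1, when 26.0% of all genes were called, and 0 without mouse 2 or mouse 3 (5.38% and 5.90%). At Day 3 it was 2 without male Day 0 mouse 3 or mouse 4 (38.6% and 34.7%), 0 without male Day 0 mouse 1 or 2 (17.8% and 14.2%) and 0 without any 1 Day 3 mouse (4.18% to 7.98%). In females 0 of 7 were called at Day 2 (1.93% of 16541 genes), 0 at Day 3 (5.54% of 17065 genes) and 0 at Day 5 (0.258% of 16260 genes). Without female Day 0 mouse 4 these counts were 1, 2 and 1, when 28.3%, 39.1% and 12.6% of all genes were called. At an unadjusted p under 0.05 there were 1, 2 and 3 members in males (29.0%, 40.5% and 36.1% of all genes) and 0, 1 and 1 in females (25.3%, 30.7% and 15.7%), on the days in order. DESeq2 called 0 in males at Day 2 (18.2% of all genes) and 0 in females on each day (12.9%, 21.2% and 4.56%). limma voom with sample quality weights called 4 in males at Day 2 (46.4% of all genes) and 2, 2 and 1 in females (50.3%, 47.9% and 17.6%). The groups did not overlap for 1 member in males at Day 2 (24.4% of all genes), 1 at Day 3 (38.3%) and 2 at Day 5 (27.3%). In females they overlapped for all 7 members on each day, when 15.3%, 19.3% and 8.59% of all genes did not overlap. The median log2 fold change of the 7 genes in males was 0.33, 0.35 and -0.64 at Day 2, Day 3 and Day 5, beside 0.03, 0.02 and 0.04 over all genes tested. In females it was -0.04, 0.01 and -0.25, beside 0.03 over all genes on each day.

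Males and females were then compared on the same day. At Day 3 Enpep was 1.25-fold higher in males, with all 4 males between 103.2 and 134.3 CPM above all 4 females between 90.7 and 101.4 CPM (log2 difference 0.32, SE 0.0897, adjusted p = 0.0329, edgeR). It was the 1 member called, where 21.3% of 16673 genes were called, and the call was lost in 8 of 17 alternatives. At an unadjusted p under 0.05 there were 2 members (36.7% of all genes). In the same comparison 6 of 12 proximal tubule markers (median log2 difference 0.56) and 6 of 8 endothelial markers (median 0.43) were called higher in males and 5 of 8 adipocyte markers lower, beside the 21.3% of all genes. Their part in the Enpep difference was not tested. Leaving out male mouse 2, 3 or 4 or female mouse 3 or 4 lost it (adjusted p 0.0723 to 0.0958, edgeR), as did leaving out both females with adrenal markers (adjusted p = 0.205, edgeR, log2 difference 0.27). Atp6ap2 was at 73.7 to 82.7 CPM in males and at 82.9 to 89.8 CPM in females at Day 3. The groups did not overlap for Enpep and Atp6ap2, 2 of 7 members (25.7% of all genes), and the log2 difference of -0.19 for Atp6ap2 (SE 0.0644) did not pass (adjusted p = 0.0666, edgeR). Ace at Day 3 differed by 0.61 (SE 0.297, adjusted p = 0.177, edgeR) and Agt by -0.43 (SE 0.220, adjusted p = 0.189, edgeR). Without female Day 3 mouse 2, 3 members were called (34.6% of all genes), since both passed, Ace at 0.996 (adjusted p = 0.00118, edgeR) and Agt at -0.59 (adjusted p = 0.0283, edgeR). Of 17 alternatives each, 15 of Ace and 15 of Agt did not pass.

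At Day 0, 0 of 7 members were called between the sexes, where 0.449% of 16042 genes were called. Ren1 was lower in males by a log2 difference of -1.07 (SE 0.515), Agt by -1.13 (SE 0.558) and Mme by -0.60 (SE 0.264), at adjusted p of 0.678, 0.699 and 0.622 (edgeR). The intervals were wide, from -2.38 to 0.13 for Agt. Hepatocyte markers summed to 94.6 to 328 CPM in males at Day 0, and in females to 11220 CPM in mouse 2 and 64.7 to 419 CPM in the others. Their median log2 difference was -5.68, with 0 of 7 called. Without female Day 0 mouse 2 the Agt difference was -0.71 (SE 0.540, edgeR, adjusted p = 0.9998). At Day 2, 0 of 7 were called (1.47% of 16608 genes), and Agt differed by -0.53 (SE 0.250, adjusted p = 0.357, edgeR). At an unadjusted p under 0.05 there was 1 member at Day 0 (8.04% of all genes) and 0 at Day 2 (15.0%). The groups overlapped for all 7 members on both days, when 6.16% and 8.96% of all genes did not overlap. DESeq2 called 0 on both days (2.68% and 5.12% of all genes), and voom with sample quality weights called 3 and 1 (25.1% and 19.3%).

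At Day 5, 0 of 7 members were called between the sexes (0.276% of 15237 genes), with 3 at an unadjusted p under 0.05 (20.3% of all genes), 1 called by DESeq2 (7.11%) and 5 by voom with sample quality weights (29.8%). Agt was at 22.0 to 61.5 CPM in males and at 68.3 to 168.0 CPM in females, the 1 member whose groups did not overlap (8.86% of all genes). Its log2 difference was -1.53 (SE 0.364, 95% interval -2.34 to -0.72, adjusted p = 0.0993, edgeR). Ace differed by -1.04 (SE 0.359, adjusted p = 0.167, edgeR), Ren1 by -0.999 (SE 0.479, adjusted p = 0.272, edgeR) and Agtr1a by -0.83 (SE 0.364, adjusted p = 0.235, edgeR). Enpep differed by -0.79 (SE 0.476, adjusted p = 0.369, edgeR). Of 16 alternatives each, 12 of Agt, 14 of Ace, 15 of Ren1 and 13 of Agtr1a did not pass. Without the library labelled male Day 5 mouse 1, 5 members passed, all lower in males, when 17% of all genes were called. Agt was then at -1.86 (adjusted p = 0.00214, edgeR), Ace at -1.59 (adjusted p = 0.000444, edgeR), Ren1 at -1.48 (adjusted p = 0.0353, edgeR), Enpep at -1.47 (adjusted p = 0.00574, edgeR) and Agtr1a at -1.20 (adjusted p = 0.0204, edgeR). The remaining 3 males had mitochondrial shares of 78.9% to 79.8%, against 9.30% to 77.9% in the females. With all mice, proximal tubule markers had a median log2 difference of -1.47 at Day 5, with 1 of 12 called higher in males and 0 lower. Of the adrenal cortex markers 4 of 6 tested were called lower in males, beside 0.276% of all genes. The part of these markers and of the mitochondrial share in the differences was not tested.

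**Figure D3:**
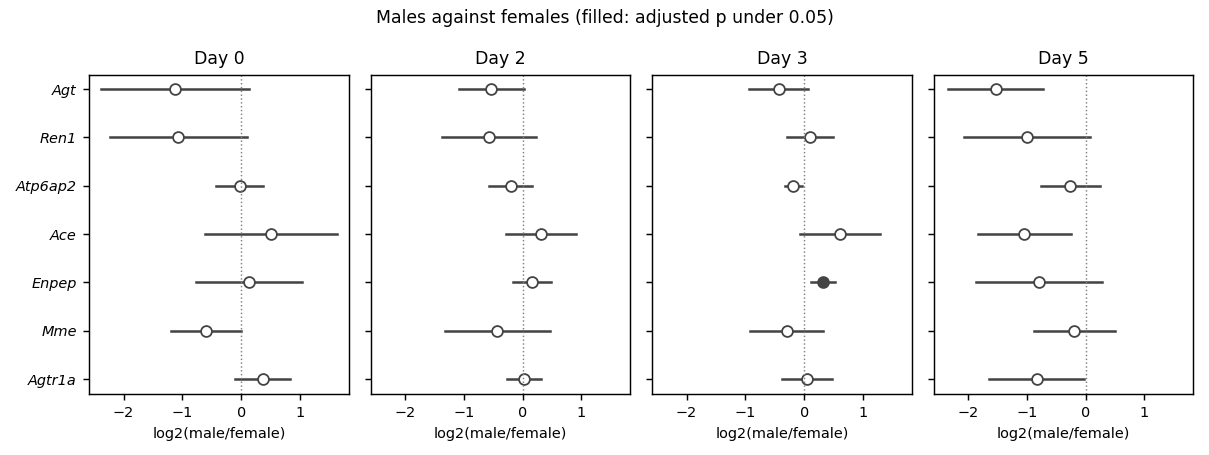
Log2 difference of males from females (horizontal axis, above 0 higher in males) with its 95% interval (line), for each gene on each day. The filled circle, Enpep at Day 3 with 0.32, is the 1 difference that passed adjusted p under 0.05 with edgeR, while Agt has the lowest value at Day 5, -1.53.

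Whether the change from Day 0 differed between the sexes was tested as an interaction, the change in males minus that in females. No member was called at Day 2 (0% of 17467 genes, and 738 genes at an unadjusted p under 0.05), at Day 3 (0.0114% of 17598 genes) or at Day 5 (0.243% of 16907 genes). At an unadjusted p under 0.05 there were 0, 0 and 2 members (4.23%, 7.11% and 15.2% of all genes), DESeq2 called 0 on each day (0.109%, 0.432% and 3.96%), and voom with sample quality weights called 0, 1 and 4 (10.6%, 12.1% and 32.6%). At Day 5 Ace had an interaction of -1.57 (SE 0.655, 95% interval -2.96 to -0.19, adjusted p = 0.268, edgeR) and Agtr1a of -1.23 (SE 0.457, adjusted p = 0.218, edgeR). Without the library labelled male Day 5 mouse 1 they were -2.18 and -1.65 and passed (adjusted p = 0.0338 and 0.0225, edgeR), as did 6.74% of all genes. Of 25 alternatives each, 23 of Ace and 22 of Agtr1a did not pass. At Day 3 Ren1 had 1.18 (SE 0.580, adjusted p = 0.726, edgeR). Neither the fall of Ace nor the rise of Enpep in males was thus shown to differ from the change in females.

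The other genes of the pathway were read from a list of 20, of which 13 to 17 passed the filter. In males at Day 3, 1 of 13 rose and 1 fell, and at Day 5 3 of 15 fell, which is below and near the 24.5% and 19.2% of all genes called on these days. The fallers at Day 5 were Prcp, prolylcarboxypeptidase, which degrades angiotensin II (-1.12, SE 0.285, adjusted p = 0.0271, edgeR), Ctsa, cathepsin A (-0.99, SE 0.238, adjusted p = 0.0218, edgeR), and Agtrap, which promotes internalization of the receptor (-0.90, SE 0.199, adjusted p = 0.0172, edgeR). In the same Day 5 libraries the mitochondrial share was 42.5% to 79.8% and the proximal tubule markers had a median log2 fold change of -1.88. The part of these in the falls was not tested. Lnpep, the receptor for angiotensin IV, rose in males at Day 3 by 0.78 (SE 0.173, adjusted p = 0.0190, edgeR), when Ctsa fell by 0.53. In females 0 of the 15, 16 and 16 genes tested were called at Day 2, Day 3 and Day 5. This is near the 1.93%, 5.54% and 0.258% of all genes called on these days. Between the sexes at Day 3, Klk1, kallikrein 1, was lower in males (log2 difference -0.81, SE 0.109, adjusted p = 0.00146, edgeR). Anpep, aminopeptidase N, named after its value was seen, was also called, where 21.3% of all genes were, and was higher in males by 0.28 (SE 0.0640, adjusted p = 0.0143, edgeR). The median log2 fold change of the list was -0.23, -0.39 and -0.56 in males at Day 2, Day 3 and Day 5, and -0.18, -0.52 and -0.27 in females. Agtr2, the second receptor type, had 0 counts in all 4 Day 0 males and at most 38 in any library.

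Genes of renin release and of renin cells were read from a list of 18. In males 2 of 17 rose at Day 2, 3 rose and 3 fell at Day 3, and 5 rose and 2 fell at Day 5, where 3.16%, 24.5% and 19.2% of all genes were called. In females 1 of 17 rose at Day 2 (1.93% of all genes called), and 0 of 18 at Day 3 and 0 of 17 at Day 5 were called (5.54% and 0.258% of all genes). Adcy6, an adenylyl cyclase of the cyclic AMP pathway that drives renin release, rose in males by 1.18, 1.23 and 1.13 at Day 2, Day 3 and Day 5 (SE 0.250, 0.242 and 0.273, adjusted p = 0.0457, 0.0134 and 0.0224, edgeR). Ptges, a prostaglandin E synthase, rose in males at Day 5 by 1.14 (SE 0.285, adjusted p = 0.0251, edgeR). Ptgs2, cyclooxygenase 2 of the macula densa, was at 0 to 0.750 CPM in males at Day 0 and at 1.17 to 4.35 CPM at Day 5, with 21 to 28 counts per library. It rose by 3.62 (SE 0.963, adjusted p = 0.0306, edgeR). In the same males neutrophil markers summed to 1.60 to 2.70 CPM at Day 0 and to 10.3 to 220.8 CPM at Day 5. The part of these cells and of the mitochondrial shares in the Ptgs2 value was not tested. Vdr, the vitamin D receptor, which represses renin, fell by 1.45 in males at Day 5 (SE 0.314, adjusted p = 0.0163, edgeR), in the libraries with the mitochondrial shares and tubule marker levels given above. Casr, the calcium-sensing receptor, rose by 1.68 in females at Day 2 (SE 0.282, adjusted p = 0.0235, edgeR). Akr1b7, a marker of renin cells that the adrenal cortex also expresses, rose in males at Day 5 by 2.02 (SE 0.582, adjusted p = 0.0392, edgeR). Adrenal cortex markers summed to 0.729 to 15.9 CPM in males at Day 0 and to 24.8 to 121.1 CPM at Day 5, with 3 of 4 tested called higher. Akr1b7 reached 38.7 to 123.4 CPM in females at Day 5 and was lower in males by a log2 difference of -3.26 (SE 0.452, adjusted p = 0.0300, edgeR). The adrenal markers were at 408 to 1047 CPM in those females and at 24.8 to 121.1 CPM in the males, and their part in the rise and in the difference was not tested. Between the sexes at Day 3, 1 of 18 was higher and 2 were lower in males (21.3% of all genes called), and at Day 5 1 of 16 was lower (0.276%). Among the remaining calls, named after their values were seen, Npr1 rose in males on all 3 days (0.85, 0.88 and 1.10), Creb1 rose at Day 3 (0.46), Vdr fell at Day 3 too (-0.45), Nr1h2 fell at Day 3 (-0.45) and Nr1h3 fell at Day 3 and Day 5 (-0.40 and -0.92). At Day 3 Creb1 was higher in males than in females (0.23), and Adcy5 and Ptges were lower (-0.50 and -0.38).

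Markers of the cells that carry the members were counted in the same libraries, beside 24.5% of all genes called in males at Day 3 and 19.2% at Day 5. Proximal tubule markers, which share the brush border with Ace, Enpep and Mme, had 2 of 12 called higher in males at Day 3 and 3 of 12 called lower at Day 5. Endothelial markers, 8 genes, summed to 366 to 496 CPM in males at Day 0 and to 428 to 1115 CPM at Day 5, with 3 of 8 called higher. Mural and mesangial markers, 8 genes that include cells of the renin lineage, summed to 175 to 336 CPM and to 243 to 482 CPM on these days, with 1 of 8 called higher. Podocyte markers, higher at Day 2 and Day 3, were at 147 to 353 CPM at Day 5, with 0 of 6 called. Neutrophil markers, 7 genes, summed to 1.60 to 2.70 CPM and to 10.3 to 220.8 CPM, with 3 of 4 tested called higher. Macrophage markers, 6 genes, summed to 118 to 190 CPM and to 83.4 to 271 CPM, with 1 called higher and 1 lower. Adipocyte markers, lower at Day 3, were at 1438 to 5825 CPM at Day 5, with 0 of 8 called, and mast cell markers, 5 genes, to 10.2 to 22.3 CPM and to 24.2 to 35.3 CPM, with 0 of 3 tested called. The hepatocyte markers summed to 94.6 to 328 CPM and to 20.1 to 71.8 CPM, with 1 of 7 called lower. The part of these cells in the member values was not tested.

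**Figure D4:**
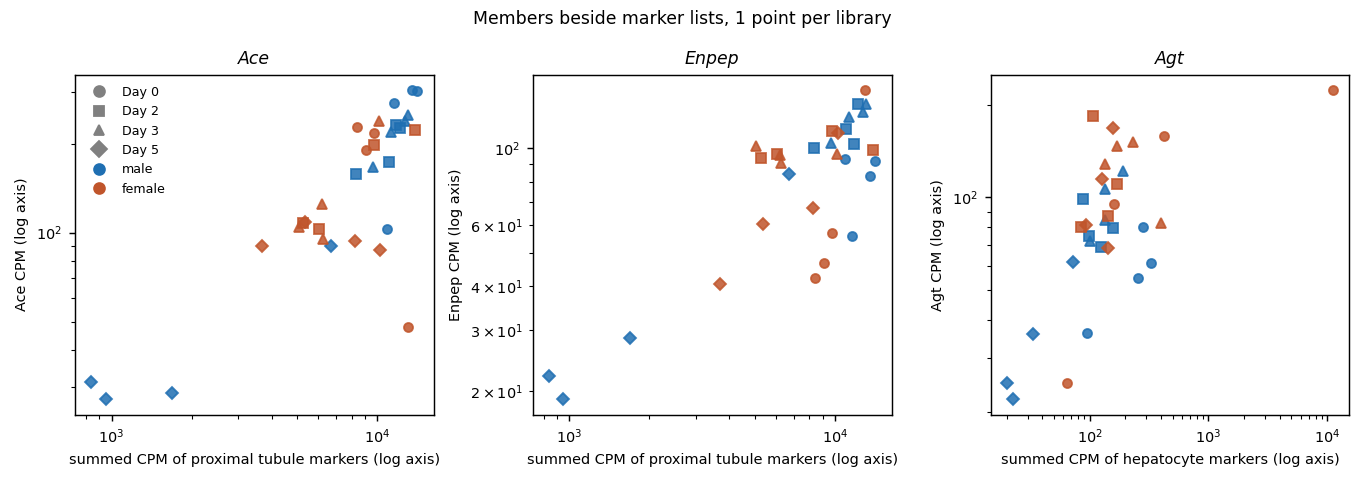
CPM of Ace and Enpep against the summed CPM of 12 proximal tubule markers, and of Agt against the summed CPM of 7 hepatocyte markers, all on log axes, with 1 point per library, symbols for the day and colours for the sex. Male Day 5 mice 2 to 4 lie at the low end of both axes for Ace and Enpep, and female Day 0 mouse 2 stands alone at 11220 CPM of hepatocyte markers with the highest Agt, 224.0 CPM.

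The genes whose 8 group means ran most like those of a member were found among 15045 protein-coding genes, by the root mean square difference of centred log2 CPM over the 8 groups. For Ace they were Galc, Keg1 and Abcg2 (0.143 to 0.153), for Enpep Mansc4, Lclat1 and Lama1 (0.103 to 0.129) and for Agtr1a Tmem189, Mettl7a1 and Lamp1 (0.0538 to 0.0694). For Agt they were Slc6a18, Mttp and Sult1b1 (0.158 to 0.187), and for Ren1 Neurl2, Klhdc9 and Sult1b1 (0.205 to 0.208). Mme ran nearest to Cnnm4, Tm9sf2 and Gpr160 (0.0757 to 0.0968) and Atp6ap2 to Dnajc11, Tmed2 and G3bp1 (0.0499 to 0.0558). Ace had the widest spread of group means (SD 0.831 on the log2 scale) and Atp6ap2 the narrowest (SD 0.203). Such likeness describes 8 means and says nothing of shared control.

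In the coordinates of the count table (GRCm38) the genes lay apart from each other except Enpep and Mme, which share chromosome 3. Ren1 spanned chromosome 1 from 133350510 to 133360325 on the plus strand, Ace chromosome 11 from 105967945 to 105989964 on the plus strand, and Agt chromosome 8 from 124556534 to 124569706 on the minus strand. Agtr1a spanned chromosome 13 from 30336441 to 30382867 on the plus strand and Atp6ap2 chromosome X from 12587801 to 12617049 on the plus strand. Enpep spanned chromosome 3 from 129269175 to 129332720 on the minus strand, and Mme from 63241537 to 63386030 on the plus strand. All 7 were annotated as protein coding. Small genes overlapped Ace (Gm11651), Agtr1a (Gm48161) and Enpep (Gm42628), with at most 3, 6 and 6 counts in any library.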

How the data were processed

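Kidney RNA of 32 mice was read as paired ends of 150 bases by the authors, who deposited raw counts per gene for 54532 genes. Per the labels, HTSeq and DESeq2 were used, with versions, aligner and strand setting not given in the sources used here. The authors also deposited FPKM values, in which each count is divided by gene length and a library size. The labels name GRCm39, whereas the methods name GRCm38; 98.3% of the 54409 gene IDs shared with GENCODE M21 (GRCm38) had identical coordinates in the count table, so GRCm38 is used here.

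The test was the robust quasi-likelihood test of edgeR 4.0.16 (R 4.3.3), with TMM scaling, filterByExpr and Benjamini-Hochberg adjustment over all genes, in 13 comparisons each fitted on its own groups. A call is an adjusted p under 0.05. CPM used TMM factors over all 32 libraries. Each library was 1 mouse, and no 2 libraries held the same counts. The replicate numbers name different mice, and in 0 of 10 comparisons did every same-numbered pair correlate over 0.1, so the numbers were not taken as pairs. Between the sexes at Day 0, 3 of 4 pairs did (0.272, 0.444 and 0.481). Comparisons with Day 0 share the Day 0 mice within a sex. All 7 members are named. Of the 2 pathway lists, genes called in a comparison with Day 0 or between sexes could be named, at most the 6 of each list with the largest change. Other called genes of the 2 lists were named as well, after their values were seen. A result of 1 listed gene is not reported here. Members and lists were chosen with earlier results of these data known. Alternatives were DESeq2 1.42.0 (size factors and Wald test), no filter, at least 10 counts in every library, 1 fit over 8 groups, a replicate block, limma 3.58.1 voom with quality weights, an absolute log2 fold change over 1.5, no mitochondrial genes and each mouse left out. Leaving out mouse 4 of both Day 0 groups, or the 2 females with adrenal markers, was added after the values were seen. The fits were run on simulated counts of the male Day 2 and Day 0 layout, with changes of 2 log2 units and the same dispersion for all genes. These counts held no outlying libraries, so they check the code and not the results given here.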

Additional observations from a re-analysis of the deposited data

Results flagged for a closer look

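Among the 56 sets of 4 mice (7 genes in 8 groups), 8 held a mouse whose gap to its nearest neighbour exceeded the 95% critical share of the group's range in Dixon's test. For independent sets of normally distributed values chance alone gives about 1 in 20. The 7 genes share their libraries and CPM was not logged, so that share cannot be used to judge the 8. Both Ace values lay in groups of the males. Male Day 0 mouse 4 was at 102.6 CPM, where the other 3 lay between 274.5 and 303.6 CPM, and the library labelled male Day 5 mouse 1 was at 90.4 CPM, where the others lay between 27.4 and 31.3 CPM. The latter library also stood apart for Enpep, at 84.4 CPM against 19.0 to 28.4 CPM. Enpep in female Day 0 mouse 4 was at 146.9 CPM against 42.2 to 56.9 CPM. Agtr1a was low in female Day 3 mouse 1, at 18.5 CPM against 31.6 to 33.8 CPM, and high in female Day 5 mouse 4, at 46.0 CPM against 23.2 to 26.4 CPM. Mme in male Day 2 mouse 4 was at 39.9 CPM against 99.4 to 107.6 CPM, and Atp6ap2 in female Day 2 mouse 1 was at 63.0 CPM against 89.0 to 90.5 CPM. The mouse numbered 4 at Day 0 had the highest mitochondrial share of its group in both sexes (24.0% and 19.7%). It also had the lowest Ace, Agt and Ren1 of its group, and the highest Enpep.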

How the results depend on the processing

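Alternatives were counted for the 28 of 91 member values with an unadjusted p under 0.1 (edgeR), which leaves out those with the least clear direction. In their 484 alternatives no direction reversed: 419 kept their side of the threshold, 46 gained it and 19 lost it. The choice favours a stable direction, so this says nothing of the other member values. Passes given above for values outside the 28 are not in these counts. Counts of members called are given with the share of all genes called in the same fit. Voom with quality weights gave 4, 3 and 5 in males at Day 2, Day 3 and Day 5 (46.4%, 57.2% and 54.9%), 2, 2 and 1 in females (50.3%, 47.9% and 17.6%), 3, 1, 5 and 5 between the sexes on the 4 days in order (25.1%, 19.3%, 43.0% and 29.8%), and 1 and 4 interactions at Day 3 and Day 5 (12.1% and 32.6%). DESeq2's Wald test gave 2 in males at Day 3 (35.1%), 2 at Day 5 (28.1%), 2 between the sexes at Day 3 (25.9%) and 1 at Day 5 (7.11%). One fit over 8 groups gave 0 in males at Day 3 (19.5%), 4 at Day 5 (31.1%), 0 and 2 between the sexes at Day 3 and Day 5 (0.988% and 9.69%), and 1 interaction at Day 5 (7.55%). The fold cut of 1.5 gave 0 in males (3.72%) and 0 between the sexes (1.93%) at Day 3, no filter gave 0 in males at Day 3 (8.62%), at least 10 counts in every library gave 2 in males at Day 5 (24.0%), and leaving out the females with adrenal markers gave 0 between the sexes at Day 3 (6.52%). Leaving out single mice gave 0 to 2 calls in males at Day 3 (4.18% to 38.6%) and 0 to 5 at Day 5 (5.38% to 26.0%), 0 to 1, 0 to 2 and 0 to 1 in females at Day 2, Day 3 and Day 5 (up to 28.3%, 39.1% and 12.6%), 0 to 3 and 0 to 5 between the sexes at Day 3 and Day 5 (11.1% to 34.6%, and up to 17%), and 0 to 2 interactions at Day 5 (up to 6.74%). The causes were not tested.

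With a replicate block, 0 members (and 0.566% of all genes) were called in males at Day 3 (Enpep 0.61, adjusted p = 0.0837, edgeR) and 0 between the sexes at Day 3 (17.6% of all genes), and 1 in males at Day 5 (13.0% of all genes, Ace -2.48, adjusted p = 0.0195, edgeR). The numbers were not taken as pairs.

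Male Day 5 mice 2 to 4 gave 54 to 441 counts per member, so their values carry more counting error than those of most libraries. Without a filter on low counts, the median log2 fold change of all genes was 0.19 in males at Day 2, 0.15 at Day 3 and 0.17 in females at Day 3, and the changes given here are from the filtered tables.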
